A study of Mus musculus with 8 samples.

Results

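The integrins and laminins of isolated mouse renal proximal tubules were followed through 72 h of cisplatin injury. Members were the gene rows whose Ensembl identifier maps to a mouse symbol that begins with Itga, is Itgb with 1 digit, or is Lama, Lamb or Lamc with a digit. There were 34 such rows of 21874 in the table: 16 integrin alpha chains, 8 integrin beta chains and 10 laminin chains. Another 3 genes fit the rule, Itga1, Itga2b and Lamc3, but had no row, and their places lie within rows named for other genes. The libraries came from male C57BL/6 mice, with 30 mg/kg cisplatin, a platinum drug toxic to this part of the nephron, given into the peritoneum. There were 2 libraries each at 0, 24, 48 and 72 h, and the 0 h libraries were the control for each later time. The labels state the injection for all samples, and those of 0 h name no time after it. Proximal tubular cells were taken from renal cortex, total RNA was freed of ribosomal RNA, and expression was given by the authors in FPKM (fragments per kilobase of gene, scaled to library size). The age and number of animals are not in the labels, and nothing says that paired libraries are from different mice. The p-values therefore rest on library spread alone, which may be technical.

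Integrins are receptors for matrix and for other cells, each made of an alpha chain paired with a beta chain. In tubule epithelium, chains that pair with Itgb1 anchor the basal side of the cell to the basement membrane, and Itgav pairs with several beta chains to bind ligands that carry the RGD peptide motif. Leukocytes carry their own set, built around Itgb2 and Itgb7, with which they leave vessels and bind other cells. Laminins are trimers of an alpha, a beta and a gamma chain that form the basement membrane sheet which the laminin-binding integrins hold.

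The 250 bases before the transcription start are shown for 4 members on which the results below turn, namely a leukocyte pair of neighbouring genes that rose, an epithelial laminin receptor that rose and a beta chain that fell. The sequences are those of RefSeq, build GRCm38.p6, in the direction of the gene, and 26 RefSeq windows were at hand for 23 of the 37 genes. Capitals mark matches on either strand to an AP-1 motif (TGANTCA), a GC box (GGGCGG) or a PU.1 motif (GAGGAAG). Windows were also searched for a TEAD motif (GGAATG) and a TATA box (TATAAA), neither of which was in these 4 windows. No marked matches overlapped.
Itgam, chr7:128062390-128062639, plus strand: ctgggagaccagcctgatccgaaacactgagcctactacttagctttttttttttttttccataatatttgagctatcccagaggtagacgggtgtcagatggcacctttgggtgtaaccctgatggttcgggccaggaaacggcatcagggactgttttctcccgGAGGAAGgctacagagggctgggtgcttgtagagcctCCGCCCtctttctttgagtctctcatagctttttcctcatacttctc
Itgax, chr7:128129300-128129549, plus strand: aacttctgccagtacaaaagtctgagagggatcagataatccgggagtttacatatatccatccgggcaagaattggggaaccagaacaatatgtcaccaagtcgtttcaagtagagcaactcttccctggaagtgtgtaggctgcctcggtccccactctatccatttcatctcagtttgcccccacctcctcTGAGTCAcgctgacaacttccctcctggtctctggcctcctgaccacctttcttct
Itga3, chr11:95076715-95076964, minus strand, the more upstream of 2 windows: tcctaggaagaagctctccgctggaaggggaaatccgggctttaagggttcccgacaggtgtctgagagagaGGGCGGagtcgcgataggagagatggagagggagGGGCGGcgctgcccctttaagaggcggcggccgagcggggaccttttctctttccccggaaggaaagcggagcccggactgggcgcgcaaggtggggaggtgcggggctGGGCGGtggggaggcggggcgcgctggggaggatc
Itgb8, chr12:119238277-119238526, minus strand: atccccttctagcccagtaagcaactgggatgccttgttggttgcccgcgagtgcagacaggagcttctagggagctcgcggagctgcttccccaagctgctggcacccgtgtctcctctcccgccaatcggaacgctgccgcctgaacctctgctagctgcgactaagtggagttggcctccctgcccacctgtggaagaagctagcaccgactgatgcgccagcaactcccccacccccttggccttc
The Itgam window held 1 PU.1 match, which began 84 bases before the start, and 1 GC box. The Itgax window held 1 AP-1 match, 56 bases before the start. The Itga3 window held 3 GC boxes, and the Itgb8 window held none of the motifs. Of all 32851 windows of this length, 6.75% held the AP-1 motif, 32.7% the GC box, 10.6% the PU.1 motif, 12.6% the TEAD motif and 12.4% the TATA box. Of the 26 windows of integrin and laminin genes, 1 held the AP-1 motif, 9 the GC box, 7 the PU.1 motif, 3 the TEAD motif and 0 the TATA box. A match says only that these letters stand in the window.

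Over the whole table, limma tested the 10757 rows that reached 1 FPKM in at least 2 libraries and called a large part of them at each time. The summed FPKM fell between 314173 and 452114 per library, and FPKM values do not give the depth. The 9 proximal tubule markers held 4227 and 4586 FPKM (0 h), 1982 and 1706 (24 h), 1138 and 1203 (48 h) and 548 and 559.8 (72 h), so the isolate carried the labelled cell type's genes most at 0 h. Distal nephron markers were present too, 7 of 8 with a row, at a summed 537 and 515 FPKM (0 h), 309.8 and 313 (24 h), 209 and 203 (48 h) and 246 and 254 (72 h). Of these 7, Aqp2 was called higher at each later time and 6 were called lower. Of all rows, 25.8%, 28.5% and 37.6% were higher and 40.0%, 42.1% and 32.4% lower at 24, 48 and 72 h. Aqp2 had 37.25 and 29.18 FPKM (0 h) and 91.24 and 102.1 (72 h). In these bulk libraries, fewer cells of a type and less RNA per cell cannot be told apart.

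Integrin and laminin rows changed in both directions at 24 h and mostly upward by 72 h. Of the 34 rows, 30 reached the level for testing. The other 4 were Itga10 and Itga11, the collagen-binding chains of cartilage and mesenchyme, Itgad and Itgb7, and each of them stayed under 1.1 FPKM in every library. At 24 h against 0 h, 10 of the 30 were higher and 12 lower in limma with Benjamini-Hochberg adjustment at 0.05, where 65.8% of all rows tested were called, 25.8% higher and 40.0% lower. At 48 h, 14 were higher and 9 lower, where 70.5% of all rows were called, 28.5% higher and 42.1% lower. At 72 h, 20 were higher and 4 lower, where 70.0% of all rows were called, 37.6% higher and 32.4% lower. The median log2 fold change of the 30 was -0.16 at 24 h, 0.20 at 48 h and 0.73 at 72 h, beside medians over all rows of -0.12, -0.13 and 0.07. Itgal passed the filter only through its 72 h libraries, so its difference was built into its testing, and the same holds for Itga2, Itgax and Itgb3 through 48 and 72 h and for Itga5, Itgam, Itgb4 and Lamb3 through 24, 48 and 72 h. In the other direction, Itgae and Lama4 passed only through 0 and 72 h, and Lama1 through 0, 48 and 72 h, so that lower values at the times between were built in likewise.

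From 48 h to 72 h most members went up. At 72 h against 48 h, 22 of the 30 were higher and 1, Itgb8, was lower, where 48.4% of all rows were called, 37.2% higher and 11.3% lower. When library medians were set equal, 20 were higher and 1 lower, while of all rows 2307 were then higher and 2483 lower. Itgb1 (0.03) and Lama5 (0.37) were then no longer called. The fall of Itgb8 was -0.32 ± 0.103 (SE; limma adjusted p = 0.0298), a call lost without 48 h library b (-0.16), 72 h library a (-0.27) or 72 h library b (-0.38) and with no filter on low values. It was larger with library medians set equal (-0.55, limma adjusted p = 0.00264) and after quantile normalisation (-0.49, limma adjusted p = 0.00484). The rise of Lamb3 was lost without 72 h library b (0.52) and after quantile normalisation (0.33). At 48 h against 24 h, 12 were higher and 0 lower in limma, where 28.3% of all rows were called, 11.2% higher and 17.2% lower. At an unadjusted limma p under 0.05, 16 were higher and still 0 lower. Among these rises, those of Itgb1, Itga6 and Itgam were lost without either 48 h library and without 1 of the 24 h libraries (a for Itgb1 and Itgam, b for Itga6), and that of Itgax without 48 h library a. There were 1576 higher and 1562 lower of all rows after quantile normalisation, when 14 members were higher. The median over all rows was -0.03 for 48 h against 24 h and 0.18 for 72 h against 48 h, beside 0.21 and 0.63 over the 30 members. Among the 30, the mean was highest at 72 h in 22 and at 0 h in 8. This was not counted over all rows. For members that passed the filter only through later times, a late peak was in part built in.

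**Figure D1:**
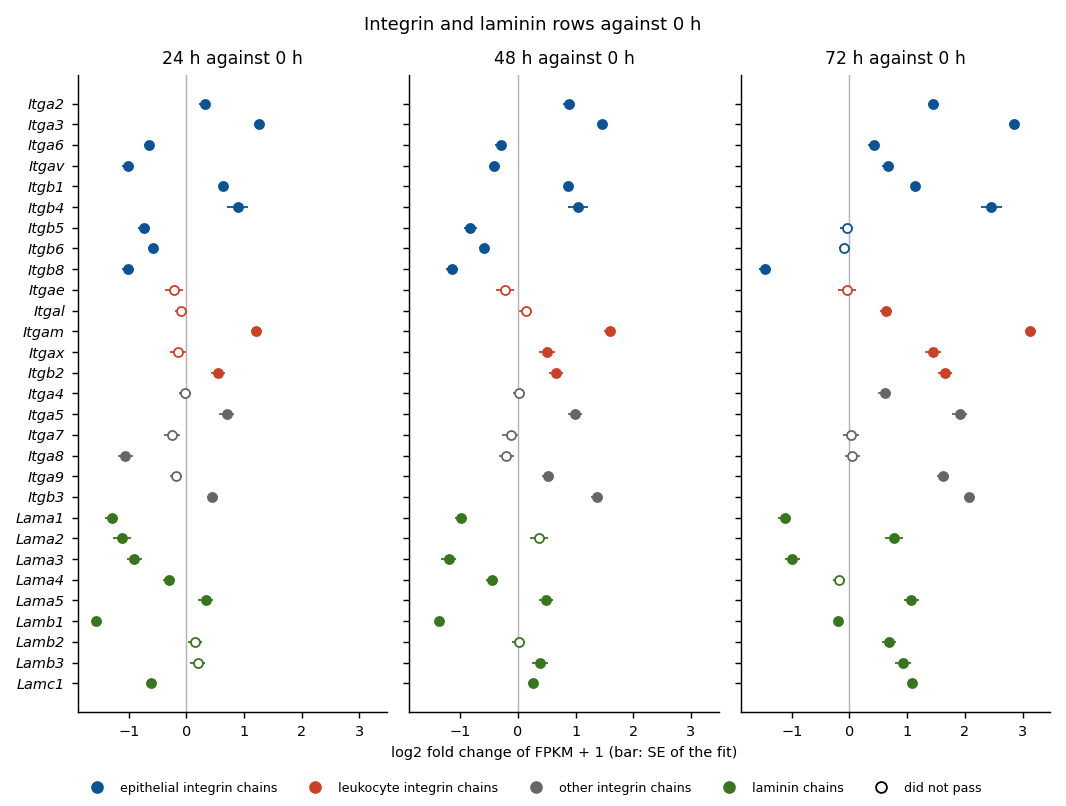
Log2 fold change of FPKM + 1 (x axis) for tested integrin and laminin rows (y axis) at 24, 48 and 72 h against 0 h, with bars for the standard error of the fit, filled points for rows that passed at adjusted p under 0.05 and open points for the rest. Points lie on both sides of 0 at 24 h, and at 72 h most filled points lie to the right of 0 and 4 to the left.

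Among the beta chains, Itgb1 rose while Itgb8 fell, and Itgb5 and Itgb6 fell at 24 and 48 h and stood near their starting level at 72 h. Itgb1, the partner of most matrix-binding alpha chains (chromosome 8, 128684466 to 128733200, mm10), had 54.95 and 55.8 FPKM (0 h), 85.3 and 88.4 (24 h), 102 and 102 (48 h) and 125 and 121 (72 h). The libraries of each time lay above those of the time before, and no groups overlapped. The log2 fold change was 0.64 ± 0.0584 (SE; limma adjusted p = 1.7e-05) at 24 h and 0.87 ± 0.0584 (SE; limma adjusted p = 1.66e-06) at 48 h. For Itgb1 at 72 h it was 1.14 ± 0.0584 (SE; limma adjusted p = 2.71e-07). Itgb8, which with Itgav releases active TGF-beta from its latent complex (chromosome 12, 119158104 to 119238936), had 54.7 and 57.8 FPKM (0 h), 27.99 and 27.04 (24 h), 22.1 and 27.9 (48 h) and 18.9 and 20.5 (72 h). Both 0 h libraries lay above all 6 later ones. Its log2 fold change was -1.01 ± 0.103 (SE; limma adjusted p = 3.36e-05) at 24 h and -1.15 ± 0.103 (SE; limma adjusted p = 1.04e-05) at 48 h. For Itgb8 at 72 h it was -1.47 ± 0.103 (SE; limma adjusted p = 1.94e-06), when it held 0.3501 of its 0 h mean. At 0 h the 2 chains stood at about the same level per length, and at 72 h Itgb1 was above Itgb8 in both libraries.

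Itgb6, the other epithelial chain that with Itgav activates TGF-beta (chromosome 2, 60562016 to 60722930), had 43.1 and 43.01 FPKM (0 h), 29.1 and 27.8 (24 h), 25.9 and 30.99 (48 h) and 40.2 and 39.9 (72 h). It fell at 24 h by 0.58 ± 0.0852 (SE; limma adjusted p = 0.000304) and at 48 h by 0.59 ± 0.0852 (SE; limma adjusted p = 0.000235) on the log2 scale, and at 72 h the difference from 0 h was -0.10 ± 0.0852 (SE; limma adjusted p = 0.315). Itgb5, a vitronectin receptor chain (chromosome 16, 33829411 to 33950324), had 26.8 and 27.2 FPKM (0 h), 18.2 and 13.8 (24 h), 15.1 and 14.5 (48 h) and 26.1 and 26.1 (72 h). All 4 libraries of 24 and 48 h lay below those of 0 and 72 h for both chains. Itgb5 fell by 0.73 ± 0.112 (SE; limma adjusted p = 0.000385) at 24 h and by 0.83 ± 0.112 (SE; limma adjusted p = 0.000147) at 48 h on the log2 scale, with -0.05 ± 0.112 (SE; limma adjusted p = 0.708) at 72 h. The ratio of Itgb6 to Itgb8 in FPKM was 0.789 and 0.744 (0 h), 1.04 and 1.03 (24 h), 1.17 and 1.11 (48 h) and 2.13 and 1.95 (72 h), so Itgb6 stood under Itgb8 at 0 h and over it in each later library.

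Itgb3 and Itgb4 rose from low levels. Itgb3, the vitronectin and fibrinogen receptor chain known from platelets and osteoclasts (chromosome 11, 104606821 to 104670674), had 0.343 and 0.254 FPKM (0 h), 0.788 and 0.756 (24 h), 2.33 and 2.35 (48 h) and 4.46 and 4.48 (72 h), and no groups overlapped. Its log2 fold change was 0.45 ± 0.0925 (SE; limma adjusted p = 0.00224) at 24 h and 1.36 ± 0.0925 (SE; limma adjusted p = 1.77e-06) at 48 h. For Itgb3 at 72 h it was 2.08 ± 0.0925 (SE; limma adjusted p = 1.14e-07). Itgb4, the partner of Itga6 in hemidesmosomes, had 0.391 and 0.487 FPKM (0 h), 2.23 and 1.195 (24 h), 2.304 and 1.66 (48 h) and 6.68 and 7.12 (72 h). It differed from 0 h by 0.89 ± 0.1803 (SE; limma adjusted p = 0.00217), 1.04 ± 0.1803 (SE; limma adjusted p = 0.000738) and 2.46 ± 0.1803 (SE; limma adjusted p = 3.03e-06) at the 3 times. The row of Itgb4 runs from 115974407 to 116978330 on chromosome 11 and covers 33 other protein-coding genes, 5 of them with no row of their own, so its values may hold reads of those genes. Platelet markers summed to 4.27 and 4.31 FPKM (0 h), 3.58 and 3.81 (24 h), 4.84 and 4.55 (48 h) and 7.87 and 7.14 (72 h) over 5 of 6 with a row. Their part in the Itgb3 result was not tested.

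By share of the summed FPKM of the 8 beta chains, Itgb1 held 30.03 and 29.9 percent (0 h), 51.2 and 54.4 (24 h), 58.9 and 55.8 (48 h) and 54.5 and 53.2 (72 h). Itgb8 held 29.9 and 30.9 percent (0 h), 16.8 and 16.6 (24 h), 12.8 and 15.2 (48 h) and 8.23 and 9.02 (72 h). Between these, Itgb6 held 17.5 and 17.6 percent at 72 h, against 23.6 and 23.01 percent at 0 h. After quantile normalisation the falls of Itgb6 at 24 h and of Itgb5 and Itgb8 at 48 h were smaller (-0.32, -0.53 and -0.74), the call of Itgb6 at 48 h was lost (-0.19, limma adjusted p = 0.078), and at 72 h Itgb5 and Itgb6 turned to 0.13 and 0.15, with neither called. The rise of Itgb1 at 48 h was then 1.39 and that of Itgb3 at 24 h 0.28; with a pseudocount of 0.1, Itgb3 and Itgb4 stood at 3.53 and 3.70 at 72 h.

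**Figure D2:**
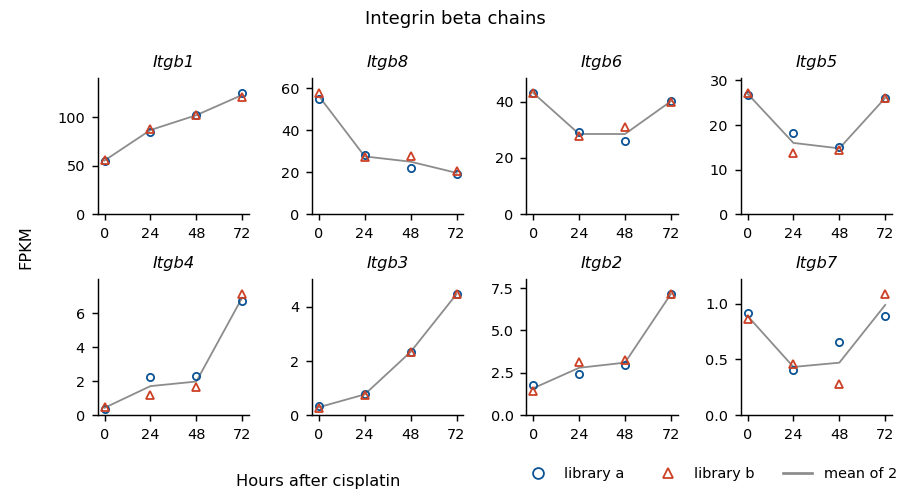
FPKM (y axis, from 0, own scale in each panel) of the 8 integrin beta chains at 0, 24, 48 and 72 h (x axis), with circles for library a, triangles for library b and a line through the mean of 2. Itgb1 climbs to 125 and 121 FPKM at 72 h, Itgb8 declines to 18.9 and 20.5, and Itgb5 and Itgb6 dip at 24 and 48 h.

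Of the laminin-binding alpha chains, Itga3 rose at every time, whereas Itga6 fell at 24 h and stood above its 0 h level at 72 h. Itga3, a partner of Itgb1 that anchors kidney epithelium to laminin (chromosome 11, 95044276 to 95084123), had 6.86 and 6.94 FPKM (0 h), 19.1 and 16.8 (24 h), 21.9 and 19.6 (48 h) and 54.8 and 57.6 (72 h). Each later library lay above both 0 h libraries, and the 72 h libraries above all others. The log2 fold change was 1.26 ± 0.08804 (SE; limma adjusted p = 3.89e-06) at 24 h and 1.46 ± 0.08804 (SE; limma adjusted p = 8.89e-07) at 48 h. For Itga3 at 72 h it was 2.86 ± 0.08804 (SE; limma adjusted p = 1.37e-08), when the mean was 8.15 times that of 0 h. Between 24 and 48 h it did not pass (0.20 ± 0.08804 (SE; limma adjusted p = 0.125)). Itga6, which pairs with Itgb1 or Itgb4 (chromosome 2, 71786886 to 71858469), had 32.1 and 37.1 FPKM (0 h), 23.3 and 20.1 (24 h), 27.1 and 28.6 (48 h) and 46.9 and 46.2 (72 h). Its change from 0 h was -0.65 ± 0.0926 (SE; limma adjusted p = 0.000255) at 24 h and -0.30 ± 0.0926 (SE; limma adjusted p = 0.0162) at 48 h. For Itga6 at 72 h it was 0.42 ± 0.0926 (SE; limma adjusted p = 0.00293). The ratio of Itga3 to Itga6 in FPKM was 0.214 and 0.187 (0 h), 0.823 and 0.832 (24 h), 0.811 and 0.685 (48 h) and 1.17 and 1.25 (72 h), so Itga3 was the lower of the pair up to 48 h and the higher in both 72 h libraries. Itga7, the laminin receptor chain of muscle, stayed between 0.896 and 1.53 FPKM and was not called at any time. Its difference from 0 h was -0.25, -0.12 and 0.03 at the 3 times (limma adjusted p from 0.154 to 0.883).

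The call of Itga6 at 48 h was the least firm of these. It was lost without 0 h library b (-0.20, limma adjusted p = 0.126), without 48 h library a (-0.26, limma adjusted p = 0.0857) and when library medians were set equal (-0.15, limma adjusted p = 0.12), and after quantile normalisation the value turned to 0.07. That normalisation also gave Itga6 -0.41 at 24 h and 0.67 at 72 h.

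Of the RGD-binding alpha chains, Itgav fell and came back, Itga5 was above its 0 h level at each later time, and Itga8 was low at 24 h. Itgav, the common partner of Itgb3, Itgb5, Itgb6 and Itgb8 (chromosome 2, 83695570 to 83806916), had 27.6 and 31.4 FPKM (0 h), 14.3 and 13.8 (24 h), 20.8 and 23.3 (48 h) and 43.9 and 51.3 (72 h). The 24 h libraries lay lowest and the 72 h libraries highest, with no overlap between times. The log2 fold change was -1.01 ± 0.1002 (SE; limma adjusted p = 2.71e-05) at 24 h and -0.41 ± 0.1002 (SE; limma adjusted p = 0.00542) at 48 h. For Itgav at 72 h it was 0.67 ± 0.1002 (SE; limma adjusted p = 0.000281). The 48 h value was -0.25 with library medians set equal and -0.07 after quantile normalisation, which ended the call. Itga5, the fibronectin receptor chain (chromosome 15, 103344117 to 103375261), had 0.9101 and 0.768 FPKM (0 h), 2.37 and 1.63 (24 h), 2.54 and 2.76 (48 h) and 5.73 and 6.11 (72 h), and the 0 h libraries lay below all others. It rose by 0.70 ± 0.128 (SE; limma adjusted p = 0.00119) at 24 h and 0.99 ± 0.128 (SE; limma adjusted p = 0.000112) at 48 h. For Itga5 at 72 h it was 1.91 ± 0.128 (SE; limma adjusted p = 1.48e-06) on the log2 scale. Between 24 and 48 h its change did not pass (0.29, limma adjusted p = 0.123). Itga8, the receptor chain of mesangial and interstitial cells for nephronectin, had 3.21 and 3.43 FPKM (0 h), 1.03 and 1.11 (24 h), 2.52 and 2.997 (48 h) and 2.94 and 4.05 (72 h). It fell at 24 h (-1.06 ± 0.132 (SE; limma adjusted p = 0.000107)) and was not called at 48 h (-0.21, limma adjusted p = 0.191) or 72 h (0.05, 0.765).

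Itga2, the collagen receptor chain of epithelia and platelets (chromosome 13, 114833084 to 114932350), had 0.0506 and 0.0653 FPKM (0 h), 0.37 and 0.263 (24 h), 1.03 and 0.881 (48 h) and 1.899 and 1.901 (72 h). The times did not overlap and followed each other upward, from a level near 0. Its log2 fold change was 0.31 ± 0.0969 (SE; limma adjusted p = 0.0179) at 24 h and 0.89 ± 0.0969 (SE; limma adjusted p = 3.73e-05) at 48 h. For Itga2 at 72 h it was 1.46 ± 0.0969 (SE; limma adjusted p = 1.41e-06), or 3.66 at 72 h with a pseudocount of 0.1. The 24 h call was lost without 0 h library a (0.30), 0 h library b (0.32) or 24 h library a (0.26), and after quantile normalisation (0.08). Itga9, a receptor chain for tenascin C and osteopontin (chromosome 9, 118606563 to 118908438), had 2.11 and 2.04 FPKM (0 h), 1.88 and 1.58 (24 h), 3.36 and 3.47 (48 h) and 7.82 and 9.12 (72 h). It passed at 48 h (0.52 ± 0.105 (SE; limma adjusted p = 0.00167)) and 72 h (1.62 ± 0.105 (SE; limma adjusted p = 1.16e-06)), and not at 24 h (-0.17, limma adjusted p = 0.177). Itga4, a receptor chain of leukocytes for VCAM-1 and fibronectin, had 1.13 and 0.8597 FPKM (0 h), 1.04 and 0.882 (24 h), 1.03 and 0.993 (48 h) and 1.94 and 2.12 (72 h). Only the 72 h libraries stood apart (0.61 ± 0.106 (SE; limma adjusted p = 0.00076), or 0.31 after quantile normalisation). All 8 markers of mesangial cells and fibroblasts had a row. At 24 h, 3 were higher and 2 lower, namely Col1a1 (-0.56) and Col1a2 (-0.42), where 25.8% of all rows were higher and 40.0% lower. Of the 8 markers, 6 were higher at 48 h (28.5% of all rows) and 7 at 72 h (37.6%). Their summed level was 63.5 and 61.1 FPKM (0 h), 98.7 and 81.2 (24 h), 144 and 141 (48 h) and 265 and 265 (72 h). Their part in the changes of Itga2, Itga5 and Itga9 was not tested.

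**Figure D3:**
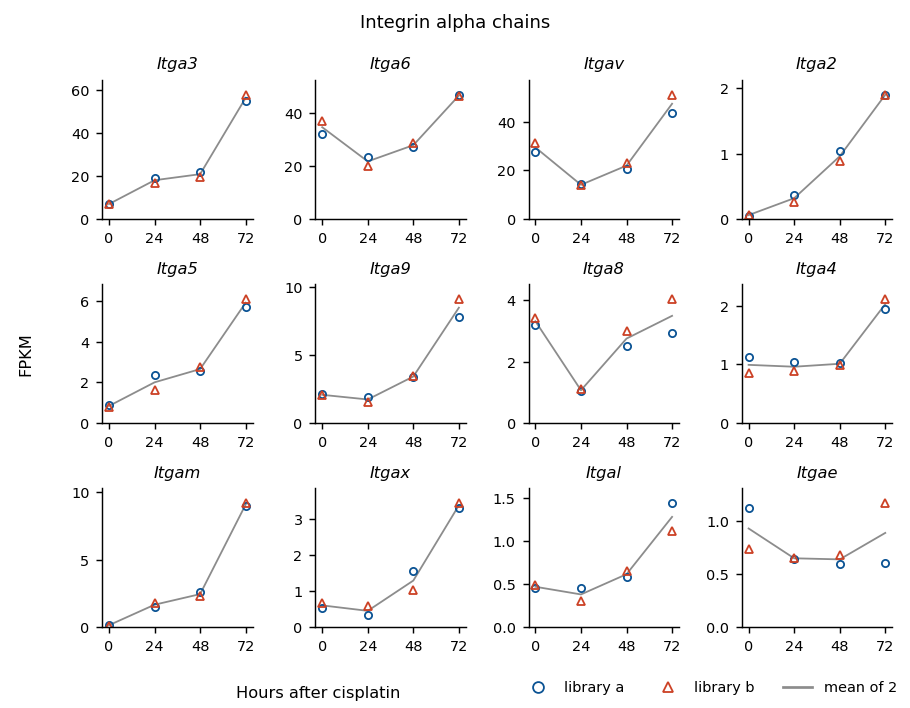
FPKM (y axis, from 0, own scale in each panel) of 12 integrin alpha chains at 0, 24, 48 and 72 h (x axis), with circles for library a, triangles for library b and a line through the mean of 2. Itga3 reaches 54.8 and 57.6 FPKM and Itgam 8.97 and 9.19 at 72 h, while Itga6, Itgav and Itga8 are lowest at 24 h.

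Of the 7 leukocyte chains, Itgam, Itgb2, Itgax and Itgal were higher at 72 h than at 0 h. Of the chains of intraepithelial lymphocytes, Itgae was not called at any time and Itgb7 was not tested. Itgam, the CD11b chain of neutrophils, monocytes and macrophages (chromosome 7, 128062527 to 128128160, promoter shown above), had 0.173 and 0.119 FPKM (0 h), 1.52 and 1.804 (24 h), 2.59 and 2.302 (48 h) and 8.97 and 9.19 (72 h). Each time lay above the one before with no overlap, and the mean at 72 h was 62.4 times that of 0 h. The log2 fold change was 1.22 ± 0.101 (SE; limma adjusted p = 1.04e-05) at 24 h and 1.59 ± 0.101 (SE; limma adjusted p = 1.24e-06) at 48 h. For Itgam at 72 h it was 3.14 ± 0.101 (SE; limma adjusted p = 1.7e-08), or 5.23 at 72 h with a pseudocount of 0.1. Itgb2, the CD18 chain shared by Itgal, Itgam, Itgax and Itgad (chromosome 10, 77530252 to 77565686), had 1.76 and 1.43 FPKM (0 h), 2.44 and 3.16 (24 h), 2.98 and 3.23 (48 h) and 7.16 and 7.14 (72 h). It rose by 0.55 ± 0.117 (SE; limma adjusted p = 0.0028) at 24 h and 0.66 ± 0.117 (SE; limma adjusted p = 0.000795) at 48 h. For Itgb2 at 72 h it was 1.66 ± 0.117 (SE; limma adjusted p = 2.08e-06) on the log2 scale. The ratio of Itgam to Itgb2 in FPKM was 0.0982 and 0.0832 (0 h), 0.624 and 0.571 (24 h), 0.872 and 0.713 (48 h) and 1.25 and 1.29 (72 h), higher in every later library than in both 0 h libraries.

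Itgax, the CD11c chain of dendritic cells and macrophages and the neighbour of Itgam on chromosome 7, had 0.546 and 0.668 FPKM (0 h), 0.331 and 0.579 (24 h), 1.56 and 1.04 (48 h) and 3.33 and 3.46 (72 h). It did not pass at 24 h (-0.15, limma adjusted p = 0.363) and passed at 48 h (0.51 ± 0.136 (SE; limma adjusted p = 0.00821)) and 72 h (1.45 ± 0.136 (SE; limma adjusted p = 1.3e-05)). The 48 h call was lost without 0 h library a (0.45) or 48 h library a (0.34) and after quantile normalisation (0.36). Itgal, the LFA-1 alpha chain of lymphocytes and other leukocytes, had 0.453 and 0.488 FPKM (0 h), 0.456 and 0.306 (24 h), 0.579 and 0.654 (48 h) and 1.45 and 1.122 (72 h), and only its 72 h libraries were above 1 FPKM. It passed at 72 h alone (0.63 ± 0.109 (SE; limma adjusted p = 0.000711)), a call that was lost after quantile normalisation (0.24, limma adjusted p = 0.0989). Without 72 h library a or b, Itgal did not reach the level for testing, so the call could not be made. Itgae, the CD103 chain that binds E-cadherin, had 1.13 and 0.735 FPKM (0 h), 0.643 and 0.657 (24 h), 0.598 and 0.682 (48 h) and 0.608 and 1.17 (72 h), with overlapping 0 and 72 h libraries and limma adjusted p from 0.212 to 0.829 over the 3 times. Itgb7, its partner, had 0.919 and 0.861 FPKM (0 h), 0.406 and 0.4597 (24 h), 0.659 and 0.283 (48 h) and 0.889 and 1.09 (72 h) and was not tested, with both 24 h libraries under both 0 h libraries. Itgad was listed at 0 in 5 of 8 libraries and reached 0.143 FPKM at most in the others.

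Markers of leukocytes moved with these chains in part. Ptprc, the CD45 gene carried by nearly all leukocytes, had 2.602 and 3.29 FPKM (0 h), 4.82 and 2.86 (24 h), 3.61 and 2.75 (48 h) and 7.91 and 5.62 (72 h). It was higher at 72 h (0.97 ± 0.231 (SE; limma adjusted p = 0.00697)) and not called at 24 h (0.27, limma adjusted p = 0.337) or 48 h (0.08, 0.771). The 8 neutrophil markers summed to 1.08 and 1.3 FPKM (0 h), 28.6 and 27.0 (24 h), 26.8 and 32.5 (48 h) and 77.97 and 75.4 (72 h), with 5 of 6 tested higher at 24 h and all 6 at 48 and 72 h. All 6 were under 1 FPKM in both 0 h libraries and passed the filter only through later times, so these counts follow from the filter. Ly6g, which defines neutrophils, was listed at 0 in both 0 h libraries and reached 0.378 FPKM at most in the others. Of 9 macrophage and monocyte markers tested, 5 were higher and 2, Csf1r and Ly6c2, lower at 24 h and also at 48 h, and all 9 were higher at 72 h. Of these 9, Cd14 and Mrc1 were under 1 FPKM in both 0 h libraries. They passed the filter only through later times, so their higher calls were built in. For the 3 times in order, the share of all rows called higher was 25.8%, 28.5% and 37.6%. The share called lower was 40.0%, 42.1% and 32.4%. Cd68 and C1qb had no row. The 10 markers with a row summed to 785 and 726 FPKM (0 h), 659 and 667 (24 h), 710.4 and 695 (48 h) and 1013 and 1024 (72 h). Most of this was Ly6c2, whose row is broad, and without it the sum was 60.2 and 53.6 FPKM (0 h), 84.1 and 68.3 (24 h), 88.9 and 89.5 (48 h) and 213 and 222 (72 h). Of the lymphocyte markers, Cd79a had a very wide row with 529.5 and 514 FPKM at 72 h, against 232 and 208 at 0 h, and the other 9 summed to 1.52 and 1.42 FPKM (0 h), 0.9996 and 0.643 (24 h), 0.864 and 0.7002 (48 h) and 1.11 and 1.24 (72 h), with none of them at 0 in every library. This sum was below both 0 h libraries at each later time. Leaving out Ly6c2 and Cd79a was chosen after their values were seen. The part of these cells in the leukocyte chain results was not tested.

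The 9 epithelial chains (Itga2, Itga3, Itga6, Itgav, Itgb1, Itgb4, Itgb5, Itgb6 and Itgb8) were called in both directions at 24 h. Of the 5 tested leukocyte chains, Itgam, Itgax and Itgal passed the filter only through later times at which they were high. Itgb7 and Itgad were not tested. The leukocyte counts and medians are therefore in part fixed by the filter. Among the epithelial chains, Itga2 and Itgb4 likewise passed only through later times at which they were high, so their higher calls were built in too. At 24 h, 4 of the 9 epithelial chains were higher and 5 lower, where 25.8% of all rows were higher and 40.0% lower, beside 2 of 5 tested leukocyte chains higher and 0 lower. At 48 h the counts were again 4 and 5 for epithelial chains, beside 3 and 0 for leukocyte chains and 28.5% and 42.1% of all rows. At 72 h, 6 epithelial chains were higher and 1 lower, beside 4 and 0 and 37.6% and 32.4% of all rows. At an unadjusted limma p under 0.05, 0 of the 5 tested leukocyte chains were lower at any of these times. The filter in part fixed this count, and Itgb7, with both 24 h libraries under both 0 h libraries, was not tested. The median log2 fold change over the epithelial chains was -0.58, -0.30 and 0.67 at 24, 48 and 72 h, beside -0.09, 0.51 and 1.45 over the 5 leukocyte chains and -0.12, -0.13 and 0.07 over all rows. The leukocyte medians were the values of Itgal at 24 h and of Itgax at 48 and 72 h, both of which passed the filter only through later times. The difference between the lists was not tested. Summed over all 9, the epithelial chains stood at 247 and 259.9 FPKM (0 h), 219.9 and 209 (24 h), 239 and 249 (48 h) and 365 and 371 (72 h). Itgb1 alone held 54.95 and 55.8 FPKM of this sum at 0 h and 125 and 121 at 72 h. The part of fibroblasts, endothelium and other cells in the sum was not tested. The 7 leukocyte chains summed to 5.09 and 4.297 FPKM (0 h), 5.8 and 7.11 (24 h), 8.96 and 8.19 (48 h) and 22.4 and 23.2 (72 h). As a share of both sums together, the leukocyte chains made up 2.02 and 1.63 percent (0 h), 2.57 and 3.29 (24 h), 3.62 and 3.18 (48 h) and 5.79 and 5.87 (72 h), so they remained the small part in every library.

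Laminin chains parted into those that fell and stayed low, those that fell and came back, and those that rose. Among the alpha chains, Lama1, part of the laminin of the tubule basement membrane (chromosome 17, 67695754 to 67822647), had 3.24 and 3.44 FPKM (0 h), 0.648 and 0.893 (24 h), 1.21 and 1.19 (48 h) and 0.905 and 1.08 (72 h). Both 0 h libraries lay above all others. Its log2 fold change was -1.30 ± 0.107 (SE; limma adjusted p = 9.51e-06) at 24 h and -0.98 ± 0.107 (SE; limma adjusted p = 3.56e-05) at 48 h. For Lama1 at 72 h it was -1.13 ± 0.107 (SE; limma adjusted p = 1.42e-05), or -1.997 at 24 h with a pseudocount of 0.1. Lama5, the alpha chain of the mature epithelial and glomerular basement membrane (chromosome 2, 180176055 to 180228634), had 6.94 and 8.69 FPKM (0 h), 9.28 and 10.9 (24 h), 10.2 and 12.5 (48 h) and 17.4 and 17.5 (72 h). It was higher by 0.33 ± 0.128 (SE; limma adjusted p = 0.0445) at 24 h and 0.49 ± 0.128 (SE; limma adjusted p = 0.00728) at 48 h. For Lama5 at 72 h it was 1.07 ± 0.128 (SE; limma adjusted p = 6.4e-05) on the log2 scale. The 24 h call was lost without any 1 of 0 h library a (0.19), 24 h library b (0.23), 72 h library a (0.33) and 72 h library b (0.33), with no filter on low values, and with both the trend and the robust option of limma switched off. The 48 h call was lost without 0 h library a (0.35) or 48 h library b (0.36). The ratio of Lama5 to Lama1 in FPKM was 2.14 and 2.53 (0 h), 14.3 and 12.2 (24 h), 8.47 and 10.6 (48 h) and 19.2 and 16.2 (72 h), higher in all later libraries than at 0 h.

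Lama2, the alpha chain of muscle and of the mesangium (chromosome 10, 26981225 to 27617278), had 3.48 and 3.83 FPKM (0 h), 1.003 and 1.32 (24 h), 4.3 and 5.76 (48 h) and 6.05 and 7.95 (72 h). It fell at 24 h (-1.11 ± 0.155 (SE; limma adjusted p = 0.000222)), did not pass at 48 h (0.36, limma adjusted p = 0.0614) and was higher at 72 h (0.77 ± 0.155 (SE; limma adjusted p = 0.00171)). Lama4, of vessel walls, stood between 0.652 and 1.49 FPKM. It was lower at 24 h (-0.31 ± 0.102 (SE; limma adjusted p = 0.0256)) and 48 h (-0.45 ± 0.102 (SE; limma adjusted p = 0.00349)) and not called at 72 h (-0.19, limma adjusted p = 0.133). Its 24 h call was lost without 0 h library b (-0.22), without 24 h library a (-0.28) and at an equal median (-0.23), while a pseudocount of 0.1 gave -0.54. Of 8 endothelial markers tested, 2 were higher and 2 lower at 24 h (25.8% and 40.0% of all rows). These markers gave 3 higher and 2 lower at 48 h (28.5% and 42.1%) and 7 higher at 72 h (37.6%). Their summed level was 67.7 and 65.01 FPKM (0 h), 72.95 and 69.1 (24 h), 85.8 and 77.5 (48 h) and 132 and 136 (72 h), and their part in the Lama4 values was not tested.

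Lama3 and Lamb3, an alpha and a beta chain of the laminin of epithelial anchorage, moved in opposite directions at 48 and 72 h. Lama3 (chromosome 18, 12333819 to 12641725, in a row that reaches 58712 bases past the gene), had 8.55 and 9.55 FPKM (0 h), 3.97 and 4.799 (24 h), 3.01 and 3.74 (48 h) and 3.58 and 4.58 (72 h). It fell by 0.90 ± 0.135 (SE; limma adjusted p = 0.000346) at 24 h, 1.20 ± 0.135 (SE; limma adjusted p = 4.5e-05) at 48 h on the log2 scale. At 72 h its log2 fold change from 0 h was -0.99 ± 0.135 (SE; limma adjusted p = 0.000157). Lamb3 had 0.654 and 0.7996 FPKM (0 h), 1.28 and 0.708 (24 h), 1.24 and 1.26 (48 h) and 2.22 and 2.34 (72 h). It passed at 48 h (0.38 ± 0.138 (SE; limma adjusted p = 0.0323)) and 72 h (0.93 ± 0.138 (SE; limma adjusted p = 0.000267)) and not at 24 h (0.19, limma adjusted p = 0.242). The 48 h call of Lamb3 was lost without any 1 of the 4 libraries of 0 and 48 h (0.32 without 0 h library a, 0.44 without 0 h library b, 0.39 without 48 h library a and 0.38 without 48 h library b), with no filter on low values, and after quantile normalisation (0.26, with 0.59 at 72 h). Its row also covers Hsd11b1 and G0s2, which have rows of their own.

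Lamb1 and Lamc1, the beta and gamma chains of the commonest laminin trimers, differed in how far they came back. Lamb1 (chromosome 12, 31261942 to 31329644) had 52.8 and 55.3 FPKM (0 h), 18.1 and 16.96 (24 h), 20.2 and 20.3 (48 h) and 48.9 and 45.4 (72 h). The 4 libraries of 24 and 48 h were well under the other 4. It fell by 1.57 ± 0.0703 (SE; limma adjusted p = 4.08e-07) at 24 h and 1.37 ± 0.0703 (SE; limma adjusted p = 3.54e-07) at 48 h on the log2 scale. At 72 h it stood -0.19 ± 0.0703 (SE; limma adjusted p = 0.0339) from 0 h, a call lost without 0 h library a (-0.23), 0 h library b (-0.16) or 72 h library b (-0.14) and with both the trend and the robust option of limma switched off, and the value turned to 0.10 after quantile normalisation. Lamc1 (chromosome 1, 153218783 to 153333012) had 8.78 and 8.59 FPKM (0 h), 5.55 and 5.12 (24 h), 10.7 and 10.5 (48 h) and 19.5 and 19.7 (72 h). It was lower at 24 h (-0.61 ± 0.0759 (SE; limma adjusted p = 0.000108)) and higher at 48 h (0.26 ± 0.0759 (SE; limma adjusted p = 0.0137)) and 72 h (1.09 ± 0.0759 (SE; limma adjusted p = 1.88e-06)). The 48 h call of Lamc1 was lost without 0 h library b (0.24) or 48 h library a (0.24), and the value was 0.40 with library medians set equal. Lamb2, the beta chain of the glomerular basement membrane, had 9.21 and 8.13 FPKM (0 h), 9.19 and 10.3 (24 h), 9.31 and 8.18 (48 h) and 16.1 and 12.99 (72 h). It passed at 72 h only (0.68 ± 0.119 (SE; limma adjusted p = 0.000765)). Podocyte markers, 5 of 5 with a row, summed to 31.3 and 27.2 FPKM (0 h), 47.9 and 51.8 (24 h), 55.03 and 52.02 (48 h) and 61.95 and 62.3 (72 h), and their part in the Lamb2 and Lama5 values was not tested.

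**Figure D4:**
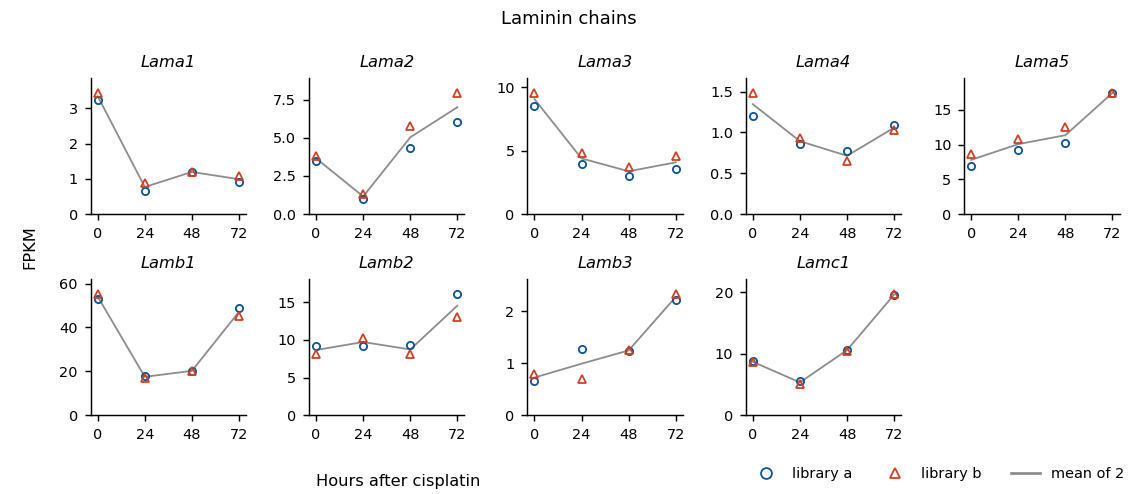
FPKM (y axis, from 0, own scale in each panel) of 9 laminin chains at 0, 24, 48 and 72 h (x axis), with circles for library a, triangles for library b and a line through the mean of 2. Lama1 and Lama3 stay low after 0 h, and Lamb1 returns to 48.9 and 45.4 at 72 h.

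By share of the summed FPKM within a chain class, Lama5 made up 29.6 and 32.2 percent (0 h), 58.9 and 57.8 (24 h), 52.4 and 52.4 (48 h) and 59.98 and 54.4 (72 h) of laminin alpha, and Lama3 36.5 and 35.4 percent (0 h), 25.2 and 25.5 (24 h), 15.4 and 15.7 (48 h) and 12.3 and 14.3 (72 h). Lama5 was the largest alpha chain in every later library but not at 0 h, where Lama3 was.

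**Figure D5:**
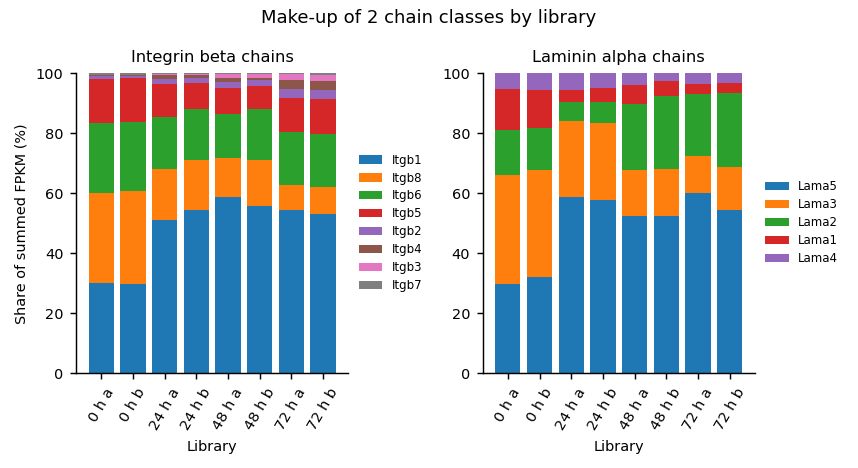
Stacked bars of each chain's share (y axis, percent of summed FPKM) in the integrin beta and laminin alpha classes, 1 bar for each of the 8 libraries (x axis). Itgb8 shrinks to 8.23 and 9.02 percent of the beta chains at 72 h, and Lama5 makes up over 50 percent of laminin alpha from 24 h on.

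Genes that act with integrins inside the cell were called in both directions. Of 28 tested genes of the adhesion complex, 2 were higher and 14 lower at 24 h, where 25.8% of all rows were higher and 40.0% lower. At 48 h, 4 were higher and 12 lower, where 28.5% and 42.1% of all rows were. At 72 h, 14 were higher and 5 lower, where 37.6% and 32.4% of all rows were. Their median log2 fold change was -0.25, -0.19 and 0.23, beside -0.12, -0.13 and 0.07 over all rows. A gene of this list reached 1 FPKM only at 72 h, so its higher call there was built in. Flna, the actin crosslinker filamin A that binds beta tails, had 15.4 and 16.03 FPKM (0 h), 30.5 and 32.2 (24 h), 36.8 and 41.7 (48 h) and 88.4 and 92.2 (72 h), and rose by 2.45 at 72 h on the log2 scale (limma adjusted p = 1.53e-08). Actn1, the crosslinker alpha-actinin, had 3.35 and 3.61 FPKM (0 h), 2.74 and 2.597 (24 h), 6.24 and 4.75 (48 h) and 22.6 and 24.04 (72 h). It was not called at 24 h (-0.29, limma adjusted p = 0.0511) and rose by 2.44 at 72 h. Lims1, the PINCH adaptor that joins integrin-linked kinase, rose by 0.49, 0.91 and 1.73 at the 3 times. In the other direction, Tns1, the tensin that links beta tails to actin, had 249 and 263 FPKM (0 h), 100.1 and 92.1 (24 h), 77.3 and 80.4 (48 h) and 116 and 113 (72 h), with log2 fold changes of -1.41, -1.69 and -1.15. Ptk2b, a kinase related to focal adhesion kinase, and Itgb1bp1, which binds the Itgb1 tail, were lower at 24 h (-1.31 and -0.62) and 48 h (-1.02 and -0.40). At 72 h Ptk2b was not called (-0.13, limma adjusted p = 0.176) and Itgb1bp1 was higher (0.74).

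In the basement membrane list, 1 of 18 tested genes was higher and 15 lower at 24 h, beside 25.8% and 40.0% of all rows. The counts were 4 higher and 8 lower at 48 h (28.5% and 42.1% of all rows) and 8 of each at 72 h (37.6% and 32.4%), with medians of -0.76, -0.32 and -0.03. Col4a1 and Col4a2, the chains of the common collagen IV, were lower at 24 h (-0.23 and -0.31) and higher at 72 h (1.80 and 1.66). Col4a1 had 82.1 and 75.0 FPKM (0 h), 68.3 and 64.97 (24 h), 124 and 115 (48 h) and 264 and 289 (72 h). Col4a4, a chain of the mature glomerular and tubular network, had 59.8 and 63.9 FPKM (0 h), 26.6 and 25.2 (24 h), 15.2 and 15.4 (48 h) and 17.8 and 20.2 (72 h), and was lower at all 3 times (-1.22, -1.94 and -1.66). Nid1, the nidogen that ties laminin to collagen IV, had log2 fold changes of -0.45, 0.66 and 1.52. Of the laminin receptors other than integrins, Bcam, which binds Lama5, had 40.2 and 34.9 FPKM (0 h), 57.5 and 54.3 (24 h), 59.1 and 54.7 (48 h) and 103 and 104 (72 h) and rose by 0.57, 0.59 and 1.44. Dag1, dystroglycan, had 30.4 and 33.1 FPKM (0 h), 14.03 and 13.4 (24 h), 14.2 and 14.3 (48 h) and 24.7 and 26.4 (72 h) and fell by 1.15, 1.10 and 0.30 on that scale. The named changes had limma adjusted p from 8.36e-08 to 0.0236.

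Ligands of integrins gave 6 of 14 tested genes higher and 3 lower at 24 h, beside 25.8% and 40.0% of all rows. There were 11 higher and 0 lower at 48 h (28.5% and 42.1% of all rows), then 14 higher and 0 lower at 72 h (37.6% and 32.4%). Fgb and another ligand passed the filter only through later times at which they were high, so their higher calls were built in. At an unadjusted limma p under 0.05, 0 ligands were lower at 48 h or at 72 h. The medians over the 14 were 0.06, 0.66 and 2.18 at 24, 48 and 72 h. Spp1, osteopontin, a ligand of Itgav and Itga9 dimers, had 259.7 and 274 FPKM (0 h), 635 and 670.1 (24 h), 1239 and 1305 (48 h) and 2285 and 2145 (72 h). Ccn1, a matricellular ligand, had 6.49 and 6.005 FPKM (0 h), 23.7 and 22.5 (24 h), 34.5 and 33.3 (48 h) and 52.2 and 51.9 (72 h). Both rose with no overlap between times, by 3.05 and 2.87 at 72 h on the log2 scale (limma adjusted p = 2.67e-09 and 4.23e-09). Fn1, fibronectin, the ligand of Itga5 dimers, was lower at 24 h (-0.54) and then higher (0.59 and 2.06). Of the fibrinogen chains, ligands of Itgam and Itgb3 dimers, Fgb was called at 72 h only (2.67), the one time through which it passed the filter. Fgg was lower at 24 h (-0.59) and higher at 48 h (0.65) and 72 h (4.57), with 1.67 and 3.38 FPKM (0 h), 1.28 and 1.26 (24 h), 4.18 and 4.58 (48 h) and 79.9 and 81.2 (72 h). Mfge8, an Itgav ligand, was not called at 24 h (0.04, limma adjusted p = 0.653) and was higher at 48 h (0.52) and 72 h (1.40).

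Of 2163 circRNAs in the table, 0 overlapped the RefSeq span of any of the 37 integrin and laminin genes.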

How the data were processed

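FPKM values per gene row for 8 libraries were made and deposited by the authors. TopHat2, Cufflinks, Bowtie 0.12.2 and the build mm10 are named in the submitters' processing notes, and which step each served, whether counting used strand, and the circRNA caller are not given in the sources used here. The labels name a small-RNA kit for the libraries. Columns carry a time and a letter, so each was assigned to its time group only. Whole-number counts of circRNA junctions, as deposited by the authors, were used to look for overlaps with members. No circRNA test was run, because 0 overlapped, and 8 further circRNA columns were not used. Row spans can merge neighbouring genes: 15 member rows reached over 2000 bases past the RefSeq gene and 17 overlapped another row.

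The 10757 rows that reached 1 FPKM in 2 or more libraries were tested as log2(FPKM + 1) with limma 3.58.1 in R 4.3.3 (trend, robust), in 1 fit of all 8 libraries with Benjamini-Hochberg adjustment per contrast and a threshold of 0.05. Fold changes are on the log2(FPKM + 1) scale, which understates the change of low genes, and ratios of means are of FPKM. The fit was tested on simulated data. FPKM gives no depth, so no counting interval is given. Members were named, except 1 item that is not reported here, and from each of 3 further lists the 6 tested genes with the smallest p in limma's moderated F-test over the 3 contrasts with 0 h were named, with Ptprc. Members and lists were chosen with earlier results of these data known. Alternatives were a pseudocount of 0.1, no filter, equal library medians, quantile normalisation, limma with trend and robust both off, and each library left out.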

Additional observations from a re-analysis of the deposited data

How the results depend on the processing

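Of 104 member changes called, the side of the threshold changed in 38 cases over 15 changes when 1 library was left out, in 9 after quantile normalisation, in 4 with equal library medians, in 4 with no filter on low values and in 2 with limma's trend and robust options both off. A pseudocount of 0.1 ended 0 calls. Cases in which a member no longer reached the level for testing are not among the 38. Itgal, which was called with all libraries, was not tested without 72 h library a or b. Itgae was not tested without 0 h library a or 72 h library b. With 1 library left out, its time rests on a lone library that is assumed to vary like the others. Gene rows called at 48 h against 24 h then numbered 1830 to 2865, with 1830 and 1839 without 48 h library a or b, against 3046 with all libraries. The sign turned in these cases. With equal library medians the log2 fold change was 0.0462 for Itga4 at 24 h, -0.0179 for Itga7 at 72 h, -0.0103 for Itga8 at 72 h. After quantile normalisation it was -0.0881 for Itga4 at 48 h, 0.0658 for Itga6 at 48 h, -0.12 for Itgal at 48 h, 0.10 for Lamb1 at 72 h, 0.13 for Itgb5 at 72 h, -0.25 for Itga7 at 72 h, -0.14 for Itga8 at 72 h, 0.15 for Itgb6 at 72 h. With 1 library left out, the values ran as follows: Lamb3 at 24 h from -0.0146 to 0.40, Itga4 at 24 h from -0.12 to 0.0751, Itga7 at 48 h from -0.33 to 0.0796, Itga4 at 48 h from -0.0803 to 0.11, Lamb2 at 48 h from -0.0735 to 0.0942, Itgae at 72 h from -0.19 to 0.18, Itga7 at 72 h from -0.0481 to 0.10, Itga8 at 72 h from -0.13 to 0.23. The cause was not tested. No paired analysis was possible because the columns carry letters, which the labels' replicate numbers do not match. The alternatives set for circRNA tests were not run, since 0 circRNAs overlapped a member. FPKM values give no depth, so how far depth limits the low members is unknown.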
